A study of Mus musculus with 20 samples.

Results

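Hedgehog signalling was followed through 9 genes of the deposited expression table, taken by gene symbol from its 51789 gene rows: the ligands Shh and Ihh, the receptors and membrane proteins Ptch1, Smo and Hhip, the transcription factors Gli1, Gli2 and Gli3, and the inhibitor Sufu. Each symbol matched 1 row. Intervertebral discs of BL6 mice were dissected into nucleus pulposus (NP), their soft centre, and annulus fibrosus (AF), the layered collagen ring that encloses it. From 18 months of age the mice received intraperitoneal injections for 6 months, either of DMSO alone (vehicle) or of MDL-800 in the same amount of DMSO, and tissue was taken at 24 months. MDL-800 is a small molecule described as an activator of the chromatin deacylase SIRT6. There were 5 libraries of each tissue from each treatment, known by the numbers in their labels: 1, 2, 3, 5 and 6 for vehicle NP, 15, 18, 19, 20 and 22 for MDL-800 NP, 8, 9, 10, 12 and 13 for vehicle AF, and 25, 27, 28, 29 and 30 for MDL-800 AF. Values of a group are listed in that order. All mice were old and all had received DMSO, so neither age nor DMSO was compared. How many mice each library represents is not given in the sources used here, and p-values measure the spread between these libraries.

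Hedgehog ligands are secreted proteins that bind Patched receptors. Without ligand, Patched keeps the membrane protein Smoothened inactive and Gli factors are held back or cut into repressors, with help from Sufu; with ligand, Smoothened collects in the primary cilium and Gli activators enter the nucleus. Gli1, Ptch1 and Hhip are themselves classic targets of active Gli, so their transcripts are used as readouts of the pathway. Sonic hedgehog (Shh) is made by the notochord and by the NP cells that descend from it, and Indian hedgehog (Ihh) by prehypertrophic chondrocytes of growth plates and endplates, where it works in a loop with PTHrP.

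Promoter sequences from RefSeq (build GRCm38.p6, 250 bases before to 50 bases after the start of transcription) were given for 7 of the 9 genes. They were searched on both strands for the Gli consensus TGGGTGGTC and for its inner core GGGTGG, which lies within the consensus. The full consensus was found in 0 of the 7 promoters and in 0.253% of 32851 mouse promoters of the same length. The core was found in 5 of the 7 (Ihh, Smo, Hhip, Gli2 and Gli3) and in 31.5% of all promoters. The 7 promoters had a GC content from 56.3% (Sufu) to 76.3% (Ptch1). All promoters were not matched to them in GC content, and the shares were not compared by a test. The promoters of the ligand Ihh, which did not overlap between the tissues, and of the Gli targets Hhip and Ptch1 are shown 5′ to 3′ with the core in capitals, on the minus strand, at chr1:74951623-74951922, chr8:80057959-80058258 and chr13:63565686-63565985.
Ihh: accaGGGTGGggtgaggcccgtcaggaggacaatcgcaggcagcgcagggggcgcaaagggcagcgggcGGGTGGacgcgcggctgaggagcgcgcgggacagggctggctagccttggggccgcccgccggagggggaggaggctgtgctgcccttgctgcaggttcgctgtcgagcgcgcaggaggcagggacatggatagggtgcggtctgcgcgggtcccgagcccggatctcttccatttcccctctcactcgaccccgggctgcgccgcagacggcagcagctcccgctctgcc
Hhip: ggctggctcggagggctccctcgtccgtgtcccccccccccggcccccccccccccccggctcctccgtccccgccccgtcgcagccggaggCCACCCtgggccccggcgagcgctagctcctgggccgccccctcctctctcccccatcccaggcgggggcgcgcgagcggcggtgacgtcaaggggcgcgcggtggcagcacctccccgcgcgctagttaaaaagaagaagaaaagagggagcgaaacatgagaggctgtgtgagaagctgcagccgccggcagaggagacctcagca
Ptch1: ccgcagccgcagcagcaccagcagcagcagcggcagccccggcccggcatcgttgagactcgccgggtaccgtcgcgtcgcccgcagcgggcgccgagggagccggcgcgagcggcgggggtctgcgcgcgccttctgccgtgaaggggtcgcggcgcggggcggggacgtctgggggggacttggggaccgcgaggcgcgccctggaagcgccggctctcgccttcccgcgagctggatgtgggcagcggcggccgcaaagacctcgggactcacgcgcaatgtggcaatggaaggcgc
In the Ihh promoter the core lies 246 and 181 bases before the start, and in the Hhip promoter 158 bases before it, there as CCACCC on the strand shown. The Ptch1 window holds no core. It lies inside the annotated gene, whose 5′ end is at chr13:63573598, and the sequence around that end was not searched. A match describes letters and not a bound site.

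The ligands and the Gli factors are families of related genes, so reads could in principle be shared between members. The longest identical run between the coding sequences of Shh and Ihh was 17 nucleotides, in exon 2 of each, at chr5:28461513-28461559 and chr1:74948495-74948541 on the minus strand of GRCm38 with 15 nucleotides on either side. The run is in capitals, and it is much shorter than the 47 nucleotides shown.
Shh: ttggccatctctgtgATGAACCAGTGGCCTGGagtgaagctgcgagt
Ihh: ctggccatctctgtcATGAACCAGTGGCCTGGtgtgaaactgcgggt
Between Gli2 and Gli3 the longest run was 25 nucleotides, in exon 10 of Gli2 at chr1:118845997-118846051 on the minus strand and exon 11 of Gli3 at chr13:15713514-15713568 on the plus strand.
Gli2: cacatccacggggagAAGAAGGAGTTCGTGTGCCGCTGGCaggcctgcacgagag
Gli3: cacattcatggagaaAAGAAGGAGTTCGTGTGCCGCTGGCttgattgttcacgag
Between Gli1 and Gli2 it was 23 nucleotides. Within these runs the family members cannot be told apart, whereas the flanks differ at several bases.

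The deposited unit is FPKM, fragments per kilobase of transcript scaled to library depth, so levels are per length and may be compared between genes. Values below are FPKM divided by a scaling factor for each library (0.933 to 1.06), called scaled FPKM. Depth was estimated from the table at 12.5 to 22.5 M reads per library, with group medians from 18.9 to 20.2 M. Fold changes are differences of log2(scaled FPKM + 1), which understates changes of low genes, and were tested with limma over 16383 genes with Benjamini-Hochberg adjustment. A gene is called higher or lower at an adjusted p under 0.05. Marker genes went with the tissue labels, with exceptions. Summed over 9 NP markers, NP libraries held 6609 to 9867 scaled FPKM and AF libraries 982 to 4175, the highest AF sum being that of AF vehicle library 9. The notochordal factor T averaged 1399 ± 251 in NP vehicle and 304 ± 200 in AF vehicle (SD, n = 5), Noto reached at most 0.155 in any library, and Car12 was the NP marker lower in NP. The summed markers of AF, hypertrophic cartilage, bone, skeletal muscle, red blood cells, neutrophils, macrophages, endothelium, Schwann cells and fat had higher medians in AF than in NP. The AF marker Fmod lay the other way, with means of 1001 in NP vehicle and 703 in AF vehicle. With MDL-800 its means were 924 and 653, and it was not called higher in NP under either treatment.

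The tissue comparison asked how the pathway differs between the core and the ring of the old disc. Smo, which was above the filter on low values in every library, was lower in NP than in AF under both treatments. Gli1, Gli2, Hhip and Ihh were near or under the filter in NP and above it in most or all AF libraries. None of these 5 genes overlapped between the groups of 5. Ptch1 was called with MDL-800 and not in vehicle, Shh was called higher in NP in vehicle alone, and Gli3 and Sufu were not called; whether calls differed between the treatments is given below as a contrast. In vehicle mice 1 of the 9 genes was called higher in NP (21.8% of all genes tested were) and 5 were called lower (33.9%), or 6 in either direction (55.7%; 6 also had an unadjusted p under 0.05, as did 60.3% of all genes). With MDL-800 0 were called higher (25.6%) and 6 lower (37.2%; 62.8% in either direction; 6 had an unadjusted p under 0.05, as did 66.1% of all genes). The groups did not overlap for 5 of 9 genes in vehicle (background 41%) and for 5 of 9 with MDL-800 (background 49.1%). The median log2 difference of the 9 genes was -1.22 in vehicle and -1.24 with MDL-800, against -0.083 and -0.084 for all genes. All 9 passed the filter of 1 FPKM in at least 5 of 20 libraries, but Ihh, Gli2 and Hhip did so only through AF libraries (8, 10 and 10 of them), and Gli1 through the 10 AF libraries and 1 NP library; such genes had to differ. The counts describe the set, stand near the shares of all genes and are no result about the pathway. In bulk tissue, fewer cells of a type and less RNA per cell cannot be told apart.

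**Figure D1:**
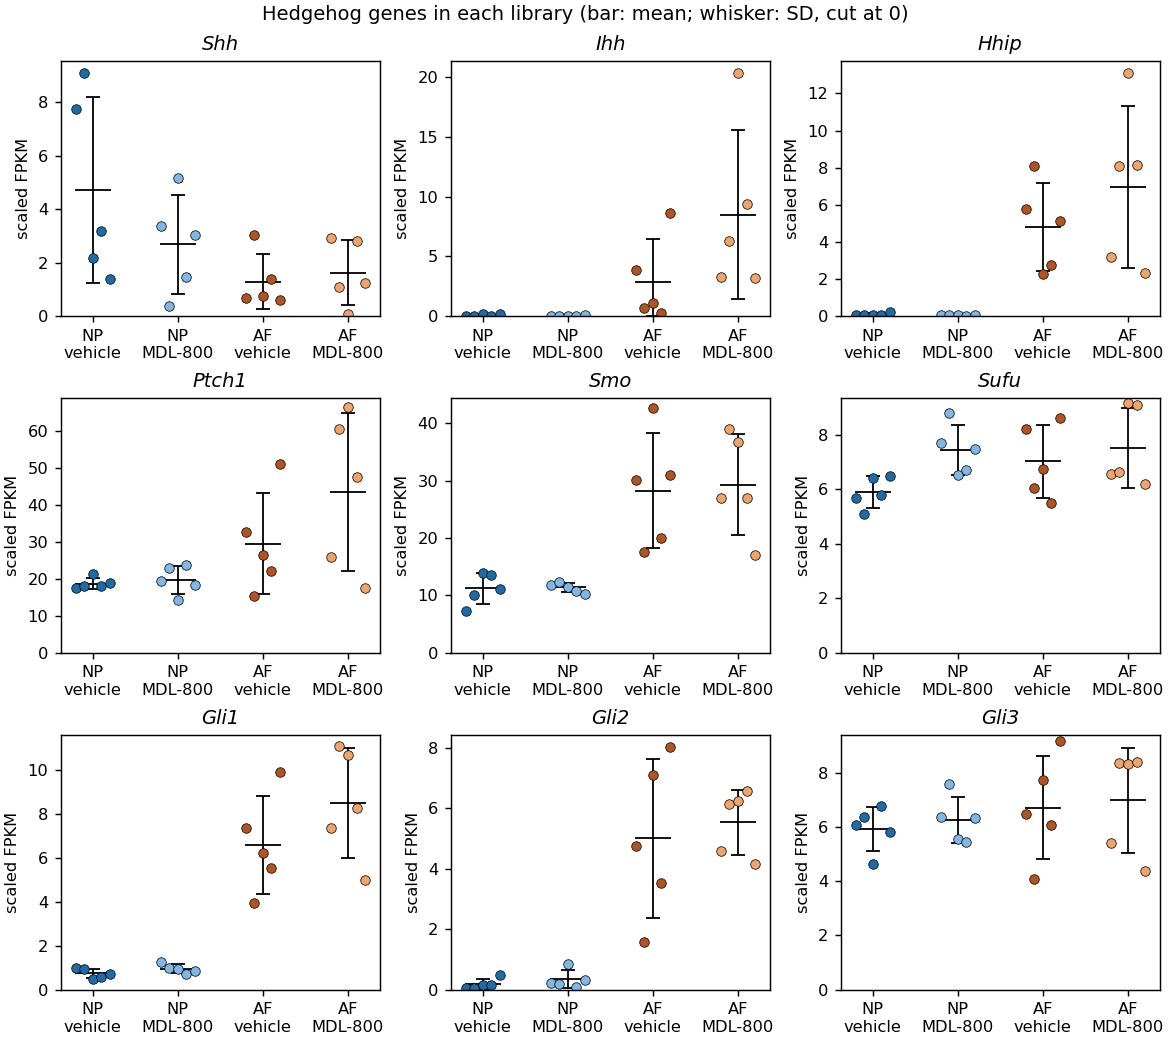
Scaled FPKM (linear axis) of the 9 genes in each of the 20 libraries by group; points are libraries, the bar is the mean and the whisker the SD of 5 libraries, cut at 0. Ihh, Hhip, Gli1, Gli2 and Smo are higher in every AF library than in any NP library of the same treatment, while Shh, Ptch1, Gli3 and Sufu overlap between tissues.

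Shh (ENSMUSG00000002633, chr5:28456815-28467256, minus strand, GRCm38) encodes the ligand of notochord and NP. In vehicle mice the NP values were 7.74, 9.09, 2.18, 3.17 and 1.39 scaled FPKM. The AF values were 0.669, 3.04, 0.763, 1.40 and 0.584. NP libraries 1 and 2 stood well above the others, and AF libraries 9 and 12 reached into the NP range, so the groups overlapped. Library 9 also had the most NP marker RNA in AF, and the part of this in its Shh value was not tested. Means were 4.71 ± 3.47 for NP and 1.29 ± 1.03 for AF (SD, n = 5), with a log2 difference of 1.19 (SE 0.42; limma adjusted p = 0.0323). This call was lost without NP library 1 (0.98, adjusted p = 0.0781), NP library 2 (0.93, 0.0764), AF library 8 (1.10, 0.0698), AF library 10 (1.12, 0.0664) or AF library 13 (1.08, 0.0738). Without the filter on low values the limma adjusted p was 0.078 over 32358 genes.

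In MDL-800 mice the NP values of Shh were 3.37, 0.368, 5.17, 1.46 and 3.03 scaled FPKM. The AF values were 2.91, 1.09, 0.0889, 2.79 and 1.23. Each tissue here held libraries below and above 1 scaled FPKM, and the log2 difference of 0.46 (95% interval -0.53 to 1.44) did not pass the test (limma adjusted p = 0.395). The exons of Shh overlap those of 2 genes on the opposite strand, 9530036O11Rik by 446 bases and Gm26894 by 361 bases. Libraries were stranded, but whether the counting used the strand is not given in the sources used here, so reads in these stretches could belong to either. 9530036O11Rik stayed between 0 and 0.236 scaled FPKM over the 20 libraries. Gm26894 lay in the same direction as Shh, at 0.444 to 2.66 in NP vehicle, 0.115 to 0.531 in AF vehicle, 0.242 to 2.19 in NP MDL-800 and 0.0494 to 1.11 in AF MDL-800.

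Ihh (ENSMUSG00000006538, chr1:74945315-74951672, minus strand) encodes the ligand of maturing cartilage. NP held 0.0214, 0, 0.212, 0.0197 and 0.178 scaled FPKM under vehicle and 0.0398, 0, 0.0303, 0 and 0.0824 under MDL-800. AF held 3.85, 0.637, 1.09, 0.247 and 8.67 under vehicle and 3.25, 6.32, 20.3, 9.39 and 3.22 under MDL-800. Every AF library was above every NP library, yet AF libraries themselves ranged widely and library 28 was the highest of all. At the estimated depth the NP values stand for 0 to 14 reads in a library, and those of AF for 14 to 1228.

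The log2 difference of Ihh in NP against AF was -1.41 in vehicle (SE 0.48; limma adjusted p = 0.0274; 0.0677 without the filter). That call was lost without NP vehicle library 1 (-1.39, adjusted p = 0.0520), NP library 2 (-1.38, 0.0540), NP library 5 (-1.39, 0.0523) or AF library 8 (-1.23, 0.0656), and with quantile normalization (-0.95, 0.110). With MDL-800 the log2 difference was -2.92 (SE 0.39; limma adjusted p = 8.16e-05; 0.000583 without the filter). Hypertrophic cartilage markers (Col10a1, Ibsp, Mmp13, Panx3, Sp7 and Alpl) moved with Ihh across tissues, but this was not particular to them. Every gene of the bone, skeletal muscle, red blood cell, neutrophil, macrophage, endothelial, Schwann cell and fat lists was also called lower in NP under both treatments. All genes were called lower at 33.9% in vehicle and 37.2% with MDL-800. The sum of the hypertrophic cartilage markers was 1.43 to 31.6 scaled FPKM in NP libraries, 192 to 666 in AF vehicle and 320 to 929 in AF MDL-800. None of these markers was at 0 throughout a group, and their part in the Ihh difference was not tested.

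**Figure D2:**
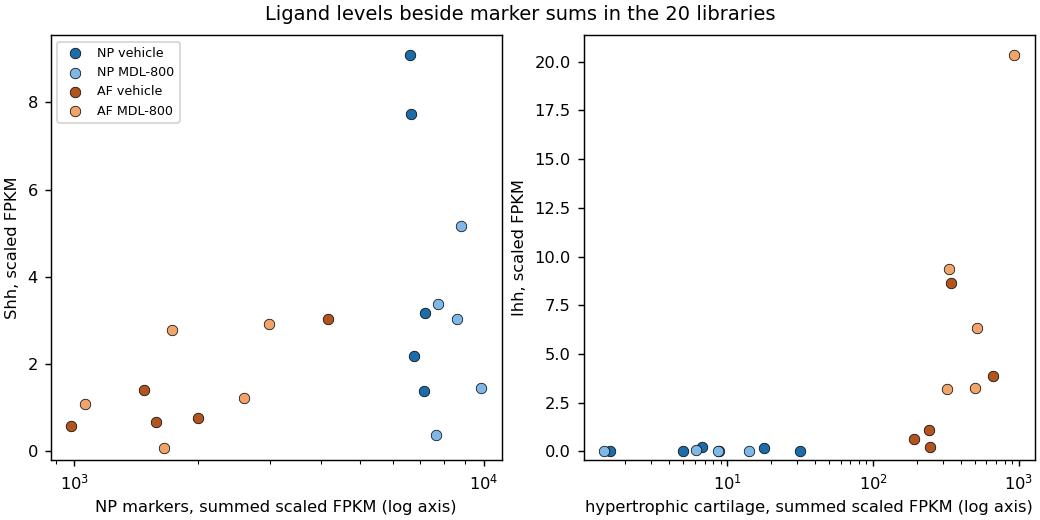
Left, Shh (scaled FPKM) against the sum of 9 NP markers (log axis); right, Ihh against the sum of 6 hypertrophic cartilage markers (log axis), with a point for each of the 20 libraries coloured by group. NP libraries lie between 6609 and 9867 on the NP marker sum with Shh from 0.368 to 9.09, and Ihh is at 0.247 or more only in AF libraries, whose cartilage sums lie between 192 and 929.

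Ptch1 (ENSMUSG00000021466, chr13:63508328-63573598, minus strand) encodes the ligand receptor and is a Gli target. Under vehicle, NP held 17.5, 18.1, 21.3, 18.0 and 18.9 scaled FPKM and AF 32.8, 15.4, 26.5, 22.0 and 51.1. NP libraries were tightly grouped, and all AF libraries but number 9 lay above them. The log2 difference was -0.53 (SE 0.25; limma adjusted p = 0.0995), and without AF library 9 it was -0.72 (adjusted p = 0.0141).

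Under MDL-800, Ptch1 stood at 19.6, 22.9, 14.3, 23.9 and 18.3 scaled FPKM in NP and at 25.8, 60.5, 66.4, 47.6 and 17.5 in AF. Only AF library 30 reached into the NP range. The log2 difference was -0.96 (SE 0.34; limma adjusted p = 0.0277). The call was lost without NP library 19 (-0.85, adjusted p = 0.0661), NP library 22 (-0.94, 0.0535), AF library 27 (-0.80, 0.0629), AF library 28 (-0.77, 0.0671) or AF library 29 (-0.89, 0.0592). It was also lost without the filter (0.067), with quantile normalization (-0.81, 0.0611) and with upper quartile scaling (-0.79, 0.0584).

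Smo (ENSMUSG00000001761, chr6:29735503-29761365, plus strand) encodes the membrane protein that passes the signal on. Under vehicle, NP held 7.35, 10.1, 13.9, 13.6 and 11.0 scaled FPKM and AF 30.1, 17.5, 42.6, 20.0 and 30.9. Under MDL-800, NP held 11.8, 12.4, 11.5, 10.8 and 10.3 and AF 26.9, 38.9, 36.7, 27.0 and 17.0. The highest NP library lay below the lowest AF library each time. The AF mean was 2.52-fold that of NP in vehicle and 2.58-fold with MDL-800. The log2 difference was -1.22 (SE 0.24; limma adjusted p = 0.00147) and -1.24 (SE 0.19; adjusted p = 0.000222), and it kept its call in all 10 fits that left out a library in each comparison.

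Hhip (ENSMUSG00000064325, chr8:79965851-80058006, minus strand) encodes a membrane protein that binds hedgehog ligands and limits them, and is a Gli target. In NP it lay between 0.0405 and 0.227 scaled FPKM in vehicle and between 0 and 0.0824 with MDL-800. AF held 5.77, 8.07, 2.26, 2.75 and 5.11 under vehicle and 3.18, 8.06, 13.1, 8.14 and 2.34 under MDL-800. Hhip was thus near the lower end of the scale in NP and at several FPKM in every AF library. The log2 difference was -2.32 in vehicle (SE 0.26; limma adjusted p = 3.97e-05) and -2.74 with MDL-800 (SE 0.35; adjusted p = 5.73e-05). Endothelial markers were also lower in NP: 6 of 6 were called lower in vehicle (33.9% of all genes were). Their sum was 10.6 to 20.3 scaled FPKM in NP vehicle against 60.3 to 123 in AF vehicle. This was not particular to endothelium. Every gene of the hypertrophic cartilage, bone, skeletal muscle, red blood cell, neutrophil, macrophage, Schwann cell and fat lists was called lower too. The part of any of these lists in the Hhip difference was not tested.

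Gli1 (ENSMUSG00000025407, chr10:127329882-127341974, minus strand) encodes an activator that is also a target of the pathway. Under vehicle, NP held 0.975, 0.918, 0.475, 0.592 and 0.711 scaled FPKM and AF 7.38, 3.97, 6.22, 5.56 and 9.94. Under MDL-800, NP held 1.27, 0.999, 0.928, 0.698 and 0.855 and AF 7.37, 11.1, 10.7, 8.31 and 5.00. Even the lowest AF library was well above the highest NP library. The AF mean was 9.01-fold that of NP in vehicle and 8.94-fold with MDL-800. On the log2 scale the differences were -2.09 (SE 0.20; limma adjusted p = 1.66e-05) and -2.25 (SE 0.19; adjusted p = 4.08e-06). Gli1 shares 62 exonic bases of 4995 with Arhgap9 on the opposite strand, which was at 0.289 to 4.44 scaled FPKM in NP and 9.63 to 33.3 in AF.

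Gli2 (ENSMUSG00000048402, chr1:118834132-119053619, minus strand) encodes the main Gli activator downstream of Smo. Under vehicle, NP held 0.0536, 0.0619, 0.142, 0.158 and 0.484 scaled FPKM and AF 4.76, 1.57, 7.10, 3.54 and 8.04. The groups did not overlap, and library 9 was again the lowest of AF vehicle. The AF mean was 27.8-fold that of NP, or 48.2-fold without NP library 6, the highest of NP. The log2 difference was -2.23 (SE 0.30; limma adjusted p = 0.000137). With MDL-800 the NP mean was 0.336 ± 0.297 and the AF mean 5.53 ± 1.08 (SD, n = 5), with a log2 difference of -2.30 (SE 0.17; limma adjusted p = 2.25e-06).

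Gli3 (ENSMUSG00000021318, chr13:15463235-15730026, plus strand) encodes the Gli factor that is mostly cut into a repressor. Its libraries ranged from 4.64 to 6.78 scaled FPKM in NP vehicle, 4.09 to 9.16 in AF vehicle, 5.43 to 7.59 in NP MDL-800 and 4.38 to 8.40 in AF MDL-800. The ranges overlapped throughout. The log2 difference in NP against AF was -0.12 in vehicle (95% interval -0.52 to 0.27; limma adjusted p = 0.583) and -0.11 with MDL-800 (-0.50 to 0.28; adjusted p = 0.617). Its sign turned with quantile normalization (0.26 and 0.27) and upper quartile scaling (0.029 and 0.041), which moved the median gene in vehicle from -0.083 to 0.20 and to 0.066.

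Sufu (ENSMUSG00000025231, chr19:46396896-46488804, plus strand) encodes the cytoplasmic inhibitor that holds Gli proteins. Its log2 difference in NP against AF was -0.21 in vehicle (95% interval -0.50 to 0.089; limma adjusted p = 0.216) and -0.0034 with MDL-800 (-0.29 to 0.29; adjusted p = 0.984). With quantile normalization these were 0.19 (adjusted p = 0.210) and 0.35 (adjusted p = 0.0293), and the second was then called higher in NP. Per length and in AF vehicle, mean levels ran from Ptch1 (29.6) and Smo (28.2) through Sufu (7.02), Gli3 (6.71), Gli1 (6.61), Gli2 (5.00) and Hhip (4.79) to Ihh (2.90) and Shh (1.29). In NP vehicle the order was Ptch1 (18.7), Smo (11.2), Gli3 (5.93), Sufu (5.90), Shh (4.71), Gli1 (0.734), Gli2 (0.180), Ihh (0.0863) and Hhip (0.0844). In AF, Ptch1 and Smo, the genes from Sufu to Hhip, and Ihh and Shh lay within each other's spread, and in NP so did Gli3, Sufu and Shh, and Gli2, Ihh and Hhip.

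**Figure D3:**
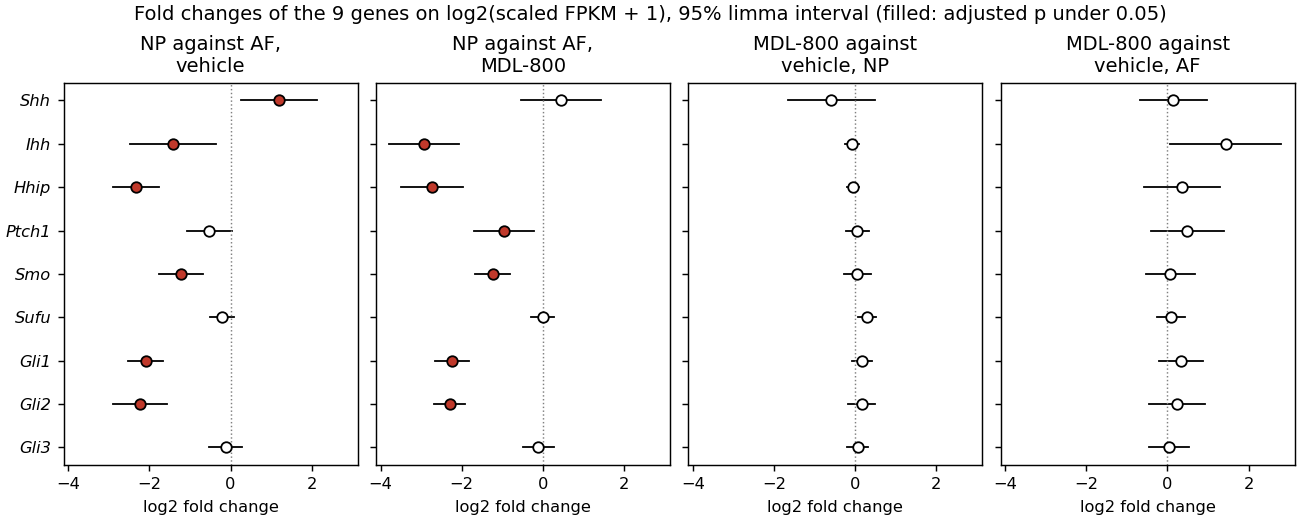
Log2 fold change (x axis) of each of the 9 genes in the 4 comparisons, as limma estimates on log2(scaled FPKM + 1) with 95% intervals; filled points have an adjusted p under 0.05. Filled points are 6 in each tissue comparison and 0 in each treatment comparison, where Ihh in AF has the largest estimate (1.44).

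The treatment comparisons asked what 6 months of MDL-800 did to the pathway in each tissue. In NP, 0 of the 9 genes were called by limma (0.25% of all genes were, 0.232% higher and 0.0183% lower), and 1 of 9, Sufu, had an unadjusted p under 0.05 (14.1% of all genes did). Sufu stood at 5.69, 5.10, 6.41, 5.81 and 6.49 scaled FPKM under vehicle and at 7.68, 8.82, 6.53, 6.72 and 7.47 under MDL-800. Every MDL-800 library was above every vehicle library, by a narrow margin. Such a lack of overlap was seen in 1 of 9 genes and in 4.5% of all genes. The mean was 1.26-fold that of vehicle, with a log2 difference of 0.29 (SE 0.10; 95% interval 0.064 to 0.51; limma adjusted p = 0.228). With each library's trend on GC content removed it was 0.16 (adjusted p = 0.542). That trend itself did not overlap between the NP groups. Its slope, in log2 per 10 percentage points of GC content, was -0.285 to -0.007 in vehicle and 0.023 to 0.088 with MDL-800. The slope is not on the scale of the Sufu difference, and the part of the trend in that difference was not tested further. The NP marker sums did not overlap either, at 6609 to 7204 in vehicle and 7672 to 9867 with MDL-800, where 3 of 8 tested markers had an unadjusted p under 0.05 and 0 were called.

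The other genes of the set gave no difference in NP beyond the spread of libraries. Shh had a mean of 4.71 ± 3.47 in vehicle and 2.68 ± 1.85 with MDL-800 (SD, n = 5), and its log2 difference of -0.59 had a 95% interval of -1.67 to 0.49 (limma adjusted p = 0.644). Vehicle libraries 1 and 2 were above every treated library, and the others lay among them. The 7 remaining log2 differences lay between -0.072 (Ihh) and 0.17 (Gli1). The 95% interval was -0.080 to 0.42 for Gli1, -0.22 to 0.34 for Ptch1 and -0.28 to 0.38 for Smo.

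In AF, 0 of the 9 genes were called by limma (0% of all genes were), and 1 of 9, Ihh, had an unadjusted p under 0.05 (1.65% of all genes did). The groups overlapped for all 9 genes, and a lack of overlap was seen in 0.226% of all genes. Ihh had a mean of 2.90 ± 3.52 in vehicle and 8.50 ± 7.09 with MDL-800 (SD, n = 5). MDL-800 libraries 28 and 29 were above every vehicle library, the other 3 lay within the vehicle range, and vehicle libraries 9, 10 and 12 were below every treated library. The log2 difference was 1.44 (SE 0.62; 95% interval 0.073 to 2.80; limma adjusted p = 1). Its estimate ran from 1.08 to 1.87 when single libraries were left out. Hypertrophic cartilage markers lay on the same side, with 3 of 6 at an unadjusted p under 0.05 and 0 called, and their median log2 difference was 0.81 against 0.0085 for all genes. Bone markers had a median of 0.76, with 2 of 6 at an unadjusted p under 0.05 and 0 called. Their part in the Ihh values was not tested.

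The Gli targets in AF also had higher means with MDL-800, within wide limits. Ptch1 averaged 29.6 ± 13.6 in vehicle and 43.6 ± 21.3 with MDL-800, Gli1 6.61 ± 2.23 and 8.50 ± 2.52, and Hhip 4.79 ± 2.37 and 6.96 ± 4.35 (SD, n = 5). For each of the 3 genes, 2 MDL-800 libraries were above every vehicle library. The log2 differences were 0.49 (95% interval -0.40 to 1.38) for Ptch1, 0.32 (-0.21 to 0.86) for Gli1 and 0.37 (-0.57 to 1.30) for Hhip, each with a limma adjusted p of 1. Shh, Smo, Gli2, Gli3 and Sufu had log2 differences between 0.049 and 0.24.

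Whether MDL-800 acted differently in the tissues was tested as a contrast over all 4 groups. For the 9 genes limma called 0 (0% of all genes), and 1 of 9 had an unadjusted p under 0.05 (3.73% of all genes). That gene was Ihh, with a difference of -1.51 in NP relative to AF (SE 0.66; limma adjusted p = 0.99974).

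Whether the Gli targets varied together was asked across the 10 libraries of each tissue on log2(scaled FPKM + 1), with 100000 permutations and adjustment over 6 relations. In AF, Gli1 and Ptch1 rose and fell together with Pearson's r of 0.972 (permutation p = 1e-05, the smallest that the permutations can give, adjusted p = 6e-05; Spearman's rho 0.976). Within the treatment groups, on deviations from their means, r was 0.969 (permutation adjusted p = 6e-05), and without the 2 libraries farthest from the median of Gli1 it was 0.964 (permutation adjusted p = 0.0015). The lowest pair of values was that of vehicle library 9 (Gli1 at 3.97 and Ptch1 at 15.4), and the highest were those of MDL-800 libraries 27 and 28. The summed NP markers were high in libraries 9 and 30 (4175 and 2593 scaled FPKM), which had low Gli1 and Ptch1. They were low in libraries 13 and 27 (982 and 1061), which had high values. Other libraries kept less to this. Library 25 had a sum of 2982 with Gli1 at 7.37 and Ptch1 at 25.8, and library 12 had 1477.5 with 5.56 and 22.0. Library 28, with high Gli1 and Ptch1, had 1659. The part of the NP markers in the relation was not tested. In NP, where Gli1 varied from 0.475 to 1.27 scaled FPKM, r was -0.206 (permutation adjusted p = 0.69; rho -0.139).

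For Hhip in AF, relations with the other targets did not pass the test over 10 libraries, and differences between coefficients were not tested. Its r was 0.499 with Gli1 (permutation adjusted p = 0.282; rho 0.503) and 0.627 with Ptch1 (permutation adjusted p = 0.166; rho 0.503). AF vehicle library 9 stood out, with the lowest Gli1 of AF and Hhip at 8.07. Without it and MDL-800 library 27, the 2 farthest from the median of Gli1, r with Gli1 was 0.848 (permutation adjusted p = 0.0252). Without MDL-800 libraries 27 and 28, r of Hhip with Ptch1 was 0.341 (permutation adjusted p = 0.707). In NP the relations of Hhip with Gli1 (r -0.0853, permutation adjusted p = 0.811; rho 0.176) and Ptch1 (r -0.193, permutation adjusted p = 0.69; rho -0.297) were weak.

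**Figure D4:**
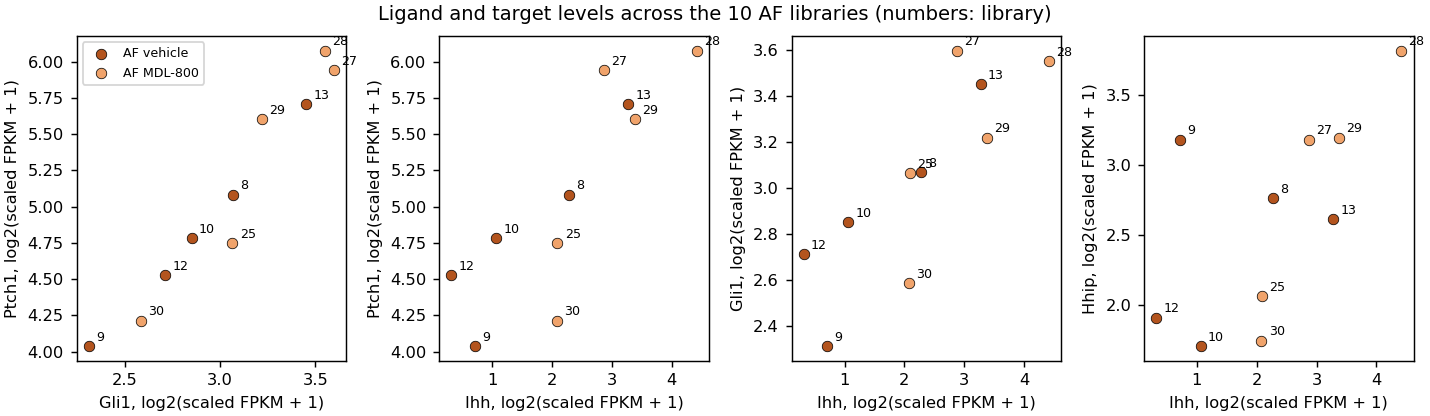
Log2(scaled FPKM + 1) of Ptch1 against Gli1, and of Ptch1, Gli1 and Hhip against Ihh, in the 10 AF libraries; points are coloured by treatment and numbered by library. Ptch1 climbs with Gli1 along a narrow line (r 0.972), and library 28 holds the highest Ihh and Ptch1 while library 9 lies low for Gli1 and Ptch1 but not for Hhip.

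A further 12 relations, of the ligands with the targets and with marker means, were added after the values had been seen. In AF, Ihh was related to Gli1 (r 0.829, permutation p = 0.00366, adjusted p = 0.0146; rho 0.855) and to Ptch1 (r 0.849, permutation p = 0.00239, adjusted p = 0.0143; rho 0.867). On deviations from the group means r was 0.802 (permutation adjusted p = 0.024) and 0.847 (permutation adjusted p = 0.0168). Without vehicle library 12 and MDL-800 library 28 the coefficients were 0.823 and 0.828 over 8 libraries, each with a permutation adjusted p of 0.0723. With Hhip, r of Ihh was 0.637 (permutation adjusted p = 0.101; rho 0.648). The mean log2 level of the hypertrophic cartilage markers was related to Ihh as well (r 0.905, permutation adjusted p = 0.00804; rho 0.806), with r of 0.812 (permutation adjusted p = 0.0723) without vehicle library 9 and MDL-800 library 28. AF libraries with more Ihh thus also held more cartilage marker RNA, whose part in the relations was not tested. No other cell type list was related to Ihh within AF, so this is not shown to be particular to cartilage. From vehicle library 12, with the lowest Ihh of AF, to MDL-800 library 28, with the highest, other lists went both ways. Mean log2 levels were 3.09 and 4.03 for endothelial markers, and 4.91 and 2.94 for Schwann cell markers.

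None of the relations of Shh with the targets passed the adjusted threshold. In NP its r was 0.238 with Gli1 (permutation adjusted p = 0.613; rho 0.273), -0.153 with Hhip (permutation adjusted p = 0.669; rho 0.139) and -0.701 with Ptch1 (permutation p = 0.0232, adjusted p = 0.0696; rho -0.745). That with Ptch1 was also -0.701 on deviations from the group means and -0.693 without vehicle library 2 and MDL-800 library 18 (permutation adjusted p = 0.0593 and 0.165). In AF it was -0.506 with Gli1 and -0.518 with Ptch1 (permutation adjusted p = 0.184 for each; rho -0.6 and -0.709), and -0.154 with Hhip (permutation adjusted p = 0.669; rho -0.0545). Without vehicle library 9 and MDL-800 library 28 the coefficients for Gli1 and Ptch1 in AF were -0.0742 and -0.1, so they rested on those libraries. With the mean of the NP markers, r of Shh was 0.675 in AF (permutation adjusted p = 0.0793; rho 0.673), or 0.315 without vehicle library 9 and MDL-800 library 25, and -0.503 in NP (permutation adjusted p = 0.184; rho -0.442).

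The rest of the pathway was read through 39 further genes in 6 lists, of which 36 were tested (Scube3, Foxl1 and Mycn fell under the filter). In vehicle mice 12 were higher in NP, 16 lower and 8 were not called (21.8% of all genes were higher and 33.9% lower). With MDL-800 the counts were 9, 15 and 12 (25.6% and 37.2% of all genes). Of the 36, 9 reached the filter only in AF libraries and so had to differ, Dhh, Scube1, Gpr161 and Pthlh among them. The median log2 difference of all 36 tested pathway genes was -0.11 in vehicle and -0.030 with MDL-800, against -0.083 and -0.084 for all genes. In the treatment comparisons limma called 0 of the 36 in either tissue, with 4 in NP (14.1% of all genes) and 0 in AF (1.65%) at an unadjusted p under 0.05.

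Among the 5 tested genes of ligand production and release, 2 were higher and 2 lower in NP in vehicle (21.8% and 33.9% of all genes). Disp1, the transporter that frees lipid-bearing hedgehog ligands from producing cells, had means of 225 ± 80.6 scaled FPKM for NP and 53.6 ± 35.1 for AF (SD, n = 5), with a log2 difference of 2.20 (SE 0.39; limma adjusted p = 0.000736). With MDL-800 it averaged 377 ± 35.1 in NP and 50.4 ± 21.7 in AF (3.00, SE 0.29; limma adjusted p = 1.05e-05). Between the NP groups Disp1 did not overlap, but its log2 difference of 0.81 missed the threshold (limma adjusted p = 0.113). Scube1, a secreted carrier of hedgehog ligands, was lower in NP (0.183 against 4.84 in vehicle; -2.14, SE 0.32; limma adjusted p = 0.000235).

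Dhh, the third mammalian ligand and a product of Schwann cells, stood under vehicle at 1.06, 0.251, 4.20, 2.50 and 1.44 scaled FPKM in AF and at 0 to 0.162 in NP. Library 10 was the highest. The log2 difference in NP against AF was -1.31 (SE 0.32; limma adjusted p = 0.00464), and -0.65 with MDL-800 (adjusted p = 0.0284). The sum of 5 Schwann cell markers was 11.1 to 23.5 in NP vehicle and 88.1 to 1067 in AF vehicle, with library 10 again the highest, and its part in the Dhh values was not tested. Hhat, the enzyme that adds palmitate to hedgehog ligands, was lower in NP with MDL-800 (2.33 against 3.73; -0.50, limma adjusted p = 0.00281).

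Of the 4 genes in the list of co-receptors, 2 were lower in NP in vehicle (33.9% of all genes) and 1 with MDL-800 (37.2%). Boc, a ligand co-receptor, averaged 11.3 in NP and 19.6 in AF vehicle (-0.70, SE 0.23; limma adjusted p = 0.0218). The co-receptors Cdon (81.2 and 66.7) and Gas1 (123 and 101.0) were not called, and are named here after their values were seen. Of 9 genes of the cilium and of signal transduction, 5 were higher and 3 lower in NP in vehicle (21.8% and 33.9% of all genes), and 3 and 3 with MDL-800 (25.6% and 37.2%). Tulp3 and Ift88, which serve transport in the cilium, were higher in NP (31.2 against 17.0 and 11.4 against 6.49 in vehicle; limma adjusted p = 4.98e-05 and 0.0016). Gpr161, a ciliary receptor that restrains the pathway, was lower (0.452 against 1.98; limma adjusted p = 0.0038).

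Of 10 Gli kinases and turnover genes, 4 were higher and 3 lower in NP in vehicle (21.8% and 33.9% of all genes), and 4 and 2 with MDL-800 (25.6% and 37.2%). Ulk3, a kinase that acts on Gli proteins, was higher in NP in vehicle (22.6 against 10.5; 1.05, limma adjusted p = 6.93e-05), and Prkaca, a catalytic subunit of protein kinase A, was lower (27.1 against 38.7; -0.50, limma adjusted p = 0.00115). Dyrk2, a kinase reported to act on Gli2, was lower in NP in vehicle (4.70 against 9.51; -0.88, limma adjusted p = 0.00157) and not called with MDL-800 (8.45 against 9.76; adjusted p = 0.61). Stk36 was higher in NP under both treatments (0.66 in vehicle and 0.70 with MDL-800; limma adjusted p = 0.00359 and 0.000889), and Cul3, a ubiquitin ligase scaffold, was lower under both (-0.34 and -0.48; limma adjusted p = 0.0155 and 0.00271).

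Of the 6 tested genes of the list of reported Gli targets, 1 was called higher and 5 lower in NP under each treatment (21.8% and 33.9% of all genes in vehicle, 25.6% and 37.2% with MDL-800). Foxf1, Foxf2 and Nkx3-2 (named for this after its values were seen) reached the filter only in AF libraries and so had to differ. The transcription factors Foxf1 (0.196 against 5.70 in vehicle; -2.44, SE 0.24; limma adjusted p = 2.12e-05) and Foxf2 (0.281 against 5.39; -2.29, SE 0.24; limma adjusted p = 3.16e-05) were lower, as were Bcl2, an inhibitor of apoptosis (4.67 against 9.62; limma adjusted p = 0.000292), and, with MDL-800, the cyclin Ccnd2 (7.35 against 25.0; limma adjusted p = 1.16e-05). The gene that was higher in NP was the cyclin Ccnd1 (73.9 against 32.7 in vehicle; 1.10, limma adjusted p = 0.00862), chosen here after its value was seen. These genes have other regulators, and the list is not a measure of the pathway alone.

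In the PTHrP loop, Pthlh, the gene of PTHrP, was lower in NP (0.0782 against 4.67 in vehicle; -2.35, SE 0.19; limma adjusted p = 7.49e-06), and its receptor gene Pth1r stood at 52.3 and 58.4 (adjusted p = 0.993). Of the 36 pathway genes, 3 did not overlap between the NP treatment groups (4.5% of all genes did not), and are named here after their values were seen: Pth1r (52.3 ± 7.94 in vehicle and 84.4 ± 14.0 with MDL-800; SD, n = 5; log2 difference 0.68, limma adjusted p = 0.0722), Dyrk2 (4.70 ± 1.13 and 8.45 ± 1.51; 0.74, adjusted p = 0.0749) and Disp1. None of them passed the threshold.

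The genes most like 4 of the pathway members across the 20 libraries were found by Pearson's r of log2(scaled FPKM + 1) over 13367 genes, as a description without a test, since the tissues form 2 separate clusters of libraries. Closest to Shh were Fam196b (r 0.932), Tceal1 (0.877), Hdhd2 (0.871), Dbi (0.864) and Eif4a2 (0.864). Among the 5 closest to Ihh were Syt8 (0.985), Corin (0.983), Panx3 (0.982) and Car12 (0.982). Panx3 is a channel gene of the hypertrophic cartilage list, and Car12 is in the list of NP markers but averaged 0.0467 scaled FPKM in NP vehicle and 1.17 in AF vehicle. Closest to Gli1 were Ednrb (0.986), Csmd1 (0.986), Nkd2 (0.985), Cemip (0.985) and Ldb2 (0.985). Closest to Hhip were Mtarc 1 (0.976), Itga2 (0.971), Mmrn1 (0.97), Kdr (0.967) and Myct1 (0.966), of which Kdr, a receptor for vascular growth factors, is in the list of endothelial markers.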

How the data were processed

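Stranded total RNA libraries of dissected NP and AF were made from 50 ng each, with ribosomal RNA removed and 14 PCR cycles, per the labels' protocols. The authors deposited a table of FPKM values, with a column for each of 20 libraries. STAR 2.7.11b and build mm10 are named in the submitters' processing notes; the counting program, annotation and strand setting are not given in the sources used here. FPKM were divided by a median-ratio factor for each library over 11308 genes. The 16383 genes that reached 1 FPKM in 5 or more libraries were tested with limma 3.58.1 (trend, two-sided) in R 4.3.3 on log2(scaled FPKM + 1), with the compared groups alone in each fit, or all 4 groups for the contrast between tissues. Calls required an adjusted p under 0.05. Alternatives were no scaling, quantile and upper quartile normalization, a pseudocount of 0.1, no filter, removal of the GC trend, all groups in a common fit, a replicate block and leaving out each library.

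Relations used permutation tests in Python 3.11.15 with scipy 1.17.1. Depth was estimated from steps in low values of single-exon genes (79.3% to 84.9% of values within 0.15 reads of a step; error up to 4.38% on simulated libraries), and no counts were used in tests. Tested on simulated data over 16383 genes, the fit recovered 136 of 200 genes changed by 1 and 195 of 200 changed by 2 on the log2 scale in the NP against AF vehicle comparison, and 137 and 193 in the NP treatment comparison. In the simulation only these 200 genes changed, and the spread of a gene was pooled over the 4 groups. In the real vehicle tissue comparison 55.7% of genes were called, so these rates check the fit and do not give its power there. Coordinates and exon overlaps are from GENCODE M21 (GRCm38), which holds 51596 of the 51789 identifiers. The members, lists, tests and alternatives were chosen with earlier results of these data known. Named genes are the 9 members, per pathway list the 3 called genes with the smallest p in each tissue comparison and any called by treatment, and the 5 genes most like Shh, Ihh, Gli1 and Hhip in pattern (mean of at least 1 scaled FPKM, without Gm-number, Rik and -ps symbols), beside exceptions said to be chosen afterwards. Of the genes this rule names, 2 are not reported here.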

Additional observations from a re-analysis of the deposited data

Results flagged for a closer look

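In 36 sets of 5 libraries (9 genes in 4 groups), 2 sets held a library far from the others, where chance gives about 1 in 20. Both were NP vehicle library 6. Hhip was at 0.227 scaled FPKM there, against 0.0405 to 0.0536 in the other 4 NP vehicle libraries. Gli2 was at 0.484, against 0.0536 to 0.158. Both values remained below the lowest AF vehicle library. Within NP vehicle, library 6 also had the highest summed bone (86.9), neutrophil (2894), red blood cell (142) and macrophage (88.1) markers. It had the highest mean log2 level of AF markers (4.45), but their sum was higher in library 1 (1583.5 against 1028.5). Other libraries had the highest sums of hypertrophic cartilage (31.6, library 2), skeletal muscle (1050, library 3) and endothelium (20.3, library 1). Library 3 was also the highest for Schwann cells (23.5) and fat (14.4). The part of these markers in the Hhip and Gli2 values was not tested.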

How the results depend on the processing

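The counts of called genes ran from 4 to 7 of 9 in the vehicle tissue comparison and from 5 to 6 with MDL-800 over all alternatives, and stayed at 0 in the other comparisons. Smo, Hhip, Gli1 and Gli2 were called in every alternative of both tissue comparisons. Hhip and Gli2 passed the filter only through AF libraries, and Gli1 through these and 1 NP library. Such genes had to differ, so their steady calls are no test of the tissue difference. Smo was above the filter in every library. Over fits leaving out a library, 492 of 540 values kept their direction and call, 14 lost the call, 1 gained it and 33 turned sign; over the other alternatives the counts were 314, 7, 1 and 11 of 333.

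Signs turned with quantile normalization for Gli3 (0.26 in vehicle, 0.27 with MDL-800) and Sufu (0.19 and 0.35), and with upper quartile scaling for Gli3 (0.029 and 0.041) and, with MDL-800, Sufu (0.15). Quantile normalization moved the median gene to 0.20 and the split of calls in vehicle from 3577 higher and 5550 lower to 6474 and 3923; upper quartile scaling gave 4871 and 4687. Without the filter 3867 were higher and 6706 lower of 32358. With the GC trend removed, the NP treatment estimates were -0.12 for Smo, 0.10 for Hhip and -0.016 for Gli1. With a pseudocount of 0.1 the contrast of Gli2 between tissues was 0.29. On deviations from group means the NP relation of Gli1 and Hhip was 0.119, and without the 2 libraries farthest from the median the AF relation of Gli1 and Hhip was 0.848 and that of Shh and Hhip 0.0858. The causes were not tested.

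The count over all genes in the NP treatment comparison (41) ran from 2, without NP vehicle library 3 or MDL-800 library 22, to 189, without NP vehicle library 6. Leaving out single libraries turned signs of small estimates only: in the MDL-800 tissue comparison Sufu (-0.060 to 0.064); in the NP treatment comparison Ptch1 (-0.013 to 0.16), Smo (-0.081 to 0.13) and Gli3 (-0.0070 to 0.11); in AF Shh (-0.033 to 0.43), Smo (-0.083 to 0.24), Gli2 (-0.035 to 0.42) and Gli3 (-0.092 to 0.18); and in the contrast between tissues Smo (-0.19 to 0.13), Gli2 (-0.25 to 0.20) and Gli3 (-0.12 to 0.16).

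Column names carry a number that recurs between tissues in 5 vehicle and 3 MDL-800 pairs, with no stated meaning. Deviations of the pairs correlated at -0.178 to 0.285, and 2 of 8 libraries matched their own number best, so the pairing is not shown. With that number as a replicate block, an alternative chosen after seeing the data, 6 genes were called in each tissue comparison; over the MDL-800 pairs Shh was then called (1.20, limma adjusted p = 0.0115) and Ptch1 was not (-1.13, adjusted p = 0.0902). Depth limits Ihh, Hhip and Gli2 in NP, where a value rests on few reads (an estimated 6 to 70 for Gli2).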
